A study of Neurospora crassa with 6 samples.

Results

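The 6 core genes of the Neurospora crassa circadian clock, frq, frh, wc-1, wc-2, vvd and fwd-1, were examined in mycelium of a cac-1 knockout and of a strain that also lacks suz-12. They were taken from the count table by gene name and locus number, and all 6 were found among its 9757 genes. They were named as core clock genes, not by a threshold on any measured value, although earlier results of these data were known when they were chosen. One of them, vvd, was lower in the double knockout, at 49.9% of its single-knockout level. Another, wc-2, was higher, at 147%, and that call depended on the scaling and on single libraries. For frq, frh, wc-1 and fwd-1 no difference passed the test.

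The Neurospora clock is a transcriptional feedback loop. The white collar proteins WC-1 and WC-2 form a complex that activates transcription of frq, and the FRQ protein, bound to the RNA helicase FRH, inhibits that complex. FRQ is progressively phosphorylated and is then marked for degradation through FWD-1, an F-box protein with WD40 repeats that recruits a ubiquitin ligase. WC-1 is also a blue-light receptor, and light acting through the white collar complex induces frq and vvd. VVD is a small flavin-binding photoreceptor that binds the complex and dampens its response to light.

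The single knockout carried the genotype cac-1 knockout and the double knockout carried cac-1, suz-12 knockout, with 3 libraries each. Both strains therefore lack cac-1, which encodes a subunit of the histone chaperone chromatin assembly factor, and a strain with an intact cac-1 gene was not analysed here. SUZ-12, the product of the other deleted gene, belongs to the Polycomb complex that methylates histone H3 in facultative heterochromatin. All cultures were mycelium grown overnight in minimal medium with 1.5% sucrose. The labels give neither the lighting nor the time of day at harvest, on which levels of frq and vvd are known to depend, and these cannot be told apart from the strain if they differed. The labels do not say whether the replicates were separate cultures, so the p-values measure the spread between these libraries, which may be technical.

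Depth ran from 7989915 counts in single-knockout replicate 1 to 28327383 in double-knockout replicate 2. The 6 clock genes had between 170 counts (frh in single-knockout replicate 1) and 13031 counts (vvd in single-knockout replicate 2) per library. No count fell on cac-1 in any library. Neither the table nor the RefSeq gene names hold the name suz-12, so that deletion was not checked here. The strains also differed at the mating-type locus: matA-1 had 0 counts in every single-knockout library and 1000 to 1387 in the double knockout. For every gene compared here, markers of sexual development included, an effect of mating type cannot be told apart from that of suz-12. Library names run consecutively within a strain, and an effect of preparing the strains apart cannot be told apart from the genotype. Levels are given as CPM, which are counts scaled to library size with TMM factors. Differences are log2 fold changes, double minus single knockout, from edgeR's quasi-likelihood test over 9148 genes, with Benjamini-Hochberg adjusted p-values and a call at 0.05.

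Of the 6 clock genes, 1 was called higher and 1 lower, or 33.3% in either direction. Across all genes tested, 28.1% were called, 16.1% higher and 11.9% lower, so the share among the clock genes was near the background. The median log2 fold change of the 6 genes was 0.21, against -0.00089 for all genes tested.

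**Figure D1:**
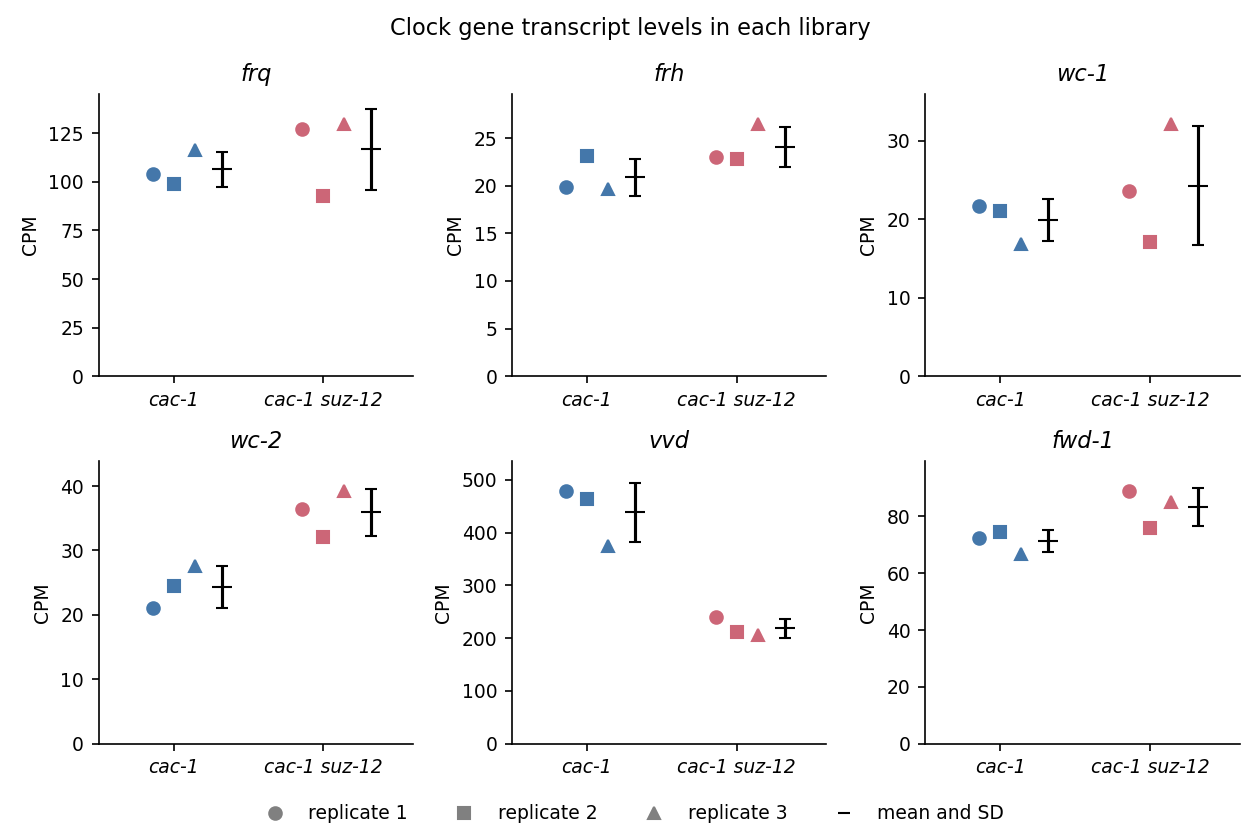
Transcript level (CPM, vertical axis from 0) of each clock gene in each library, with the single knockout in blue and the double knockout in red. Symbols mark replicate numbers, and the black bar is the mean with SD over 3 libraries. The double-knockout libraries lie below all single-knockout libraries for vvd and above them for wc-2 and fwd-1. Such separation is not a call, and fwd-1 did not pass the test. The share of all genes tested that separate in this way was not counted.

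The largest change was found at vvd (NCU03967, linkage group VI, 2269484 to 2270177, minus strand, 3 coding exons). Its level was 479, 463 and 375 CPM in single-knockout replicates 1, 2 and 3, and 239, 212 and 206 CPM in the double knockout. All double-knockout libraries lay below all single-knockout libraries, and the strains were separated by more than the spread within either. The means were 439 ± 56.2 CPM and 219 ± 17.9 CPM (SD, n = 3 each). On the log2 scale this was a difference of -1.0, with an SE of 0.158 and a 95% interval from -1.34 to -0.67 (edgeR adjusted p = 1.46e-04). Of the 9148 genes, 3.24% had a more negative fold change. The call held in each of the 6 fits that left out 1 library, with log2 fold changes from -1.12 to -0.94, and on library totals without TMM scaling. The gene is compact in its coding part, 561 bp in a RefSeq gene of 3280 bp, and the counts cover the coding exons alone.

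Among the white collar genes, wc-2 (NCU00902, linkage group I, 6816233 to 6818068, minus strand), the GATA-type zinc finger partner of WC-1, rose. It stood at 21.1, 24.5 and 27.6 CPM in the single knockout and at 36.4, 32.1 and 39.2 CPM in the double knockout. The strains did not overlap, although the highest single-knockout and the lowest double-knockout library were close. The means were 24.4 ± 3.24 and 35.9 ± 3.58 CPM (SD, n = 3 each). On the log2 scale wc-2 was higher by 0.55, with an SE of 0.162 and a 95% interval from 0.21 to 0.89 (edgeR adjusted p = 0.0178). The call was lost without single-knockout replicate 1 (log2 fold change 0.46, edgeR adjusted p = 0.0892), double-knockout replicate 1 (0.54, edgeR adjusted p = 0.0642) or double-knockout replicate 3 (0.48, edgeR adjusted p = 0.0726). It was also lost on library totals (0.35, edgeR adjusted p = 0.149), a scaling that places the median of all genes at -0.20. The adjusted p of wc-2 lay between 0.00798 and 0.149 in the 17 alternatives.

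For wc-1 (NCU02356, linkage group VII, 2769150 to 2772720, plus strand), the photoreceptor of the complex, the strains overlapped. Its level was 21.7, 21.1 and 16.8 CPM in the single knockout and 23.6, 17.0 and 32.1 CPM in the double knockout. The double-knockout libraries spread widely, with replicate 3 at 1.89 times replicate 2. The log2 fold change of 0.29 (SE 0.212, 95% interval -0.16 to 0.74) was not called (edgeR adjusted p = 0.340). With 1 library left out it ran from 0.036, without double-knockout replicate 3, to 0.49, without double-knockout replicate 2 (edgeR adjusted p = 0.0674), and it was called in none of these 6 fits. The interval leaves room for a fold change between 0.894 and 1.67.

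The negative element frq (NCU02265, linkage group VII, 3133193 to 3136162, plus strand, 1 coding exon) did not pass the test. It was measured at 104, 99.1 and 117 CPM in the single knockout and at 127, 92.8 and 130 CPM in the double knockout. Double-knockout replicate 2 was the lowest of all 6 libraries and replicate 3 the highest, so that the double knockout enclosed the single knockout. The means were 107 ± 9.02 and 117 ± 20.7 CPM (SD, n = 3 each). The difference on the log2 scale was 0.13, with an SE of 0.163 and a 95% interval from -0.21 to 0.48 (edgeR adjusted p = 0.586), and its sign turned on library totals, at -0.079. In linear terms the interval runs from 0.863 to 1.39, so a doubling or a loss of frq transcript as large as that of vvd lies outside it.

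The count table lists 3 coding intervals for frq that begin at 2 positions, 297 bases or 99 codons apart in the same reading frame. FRQ is known to be made in a long and a short form from alternative start codons, and the table gives the 2 forms 1 shared count. The frq locus is also known to give a long antisense transcript, qrf. The table holds no separate row for it, and whether the counting used the strand is not stated, so antisense reads may be part of the frq counts.

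For frh (NCU03363, linkage group II, 964863 to 968251, minus strand), the essential helicase partner of FRQ, the levels were 19.9, 23.1 and 19.6 CPM in the single knockout and 23.0, 22.8 and 26.5 CPM in the double knockout. The ranges met at the top of the single knockout. This was a log2 difference of 0.20, with an SE of 0.161 and a 95% interval from -0.14 to 0.54 (edgeR adjusted p = 0.384), and on library totals it was -0.0019.

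The F-box gene fwd-1 (NCU04540, linkage group VII, 1509293 to 1512325, minus strand) stood at 72.5, 74.5 and 66.9 CPM in the single knockout and at 88.8, 75.8 and 85.0 CPM in the double knockout. The strains did not overlap, but single-knockout replicate 2 and double-knockout replicate 2 nearly met. Its log2 fold change was 0.22 (SE 0.144, 95% interval -0.081 to 0.53) and was not called (edgeR adjusted p = 0.270).

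**Figure D2:**
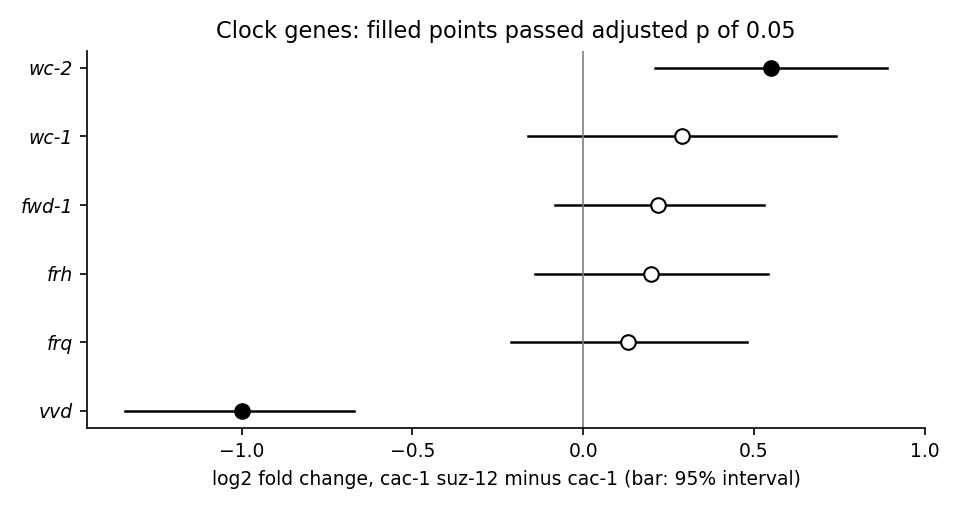
Log2 fold change of each clock gene, double minus single knockout, with its 95% interval from the edgeR fit. Filled points, vvd at -1.0 and wc-2 at 0.55, passed an adjusted p of 0.05, and the intervals of the open points include 0.

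Transcript levels of different genes were compared per coding length, as CPM per kb. In the single knockout vvd was highest at 782 ± 100.2 CPM per kb, followed by frq at 35.9 ± 3.04, fwd-1 at 24.3 ± 1.35 and wc-2 at 15.3 ± 2.04 (SD, n = 3 each). The lowest were frh at 6.29 ± 0.590 and wc-1 at 5.66 ± 0.763 CPM per kb (SD, n = 3 each). The order was the same in the double knockout, where vvd stood at 391 ± 31.9, frq at 39.3 ± 6.97, fwd-1 at 28.4 ± 2.28 and wc-2 at 22.5 ± 2.25 CPM per kb (SD, n = 3 each). There frh had 7.25 ± 0.629 and wc-1 6.92 ± 2.16 CPM per kb (SD, n = 3 each). In either strain the libraries of neighbouring genes in this order did not overlap, except for frh and wc-1. The mean of vvd per length was 21.8 times that of frq in the single knockout and 9.94 times in the double knockout. The counted part was 561 bp of vvd and 2970 bp of frq, or 17.1% and 61.6% of their RefSeq genes. How far this difference bears on the ratio between the genes was not tested. The white collar genes were unequal, with wc-2 above wc-1 in every library.

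**Figure D3:**
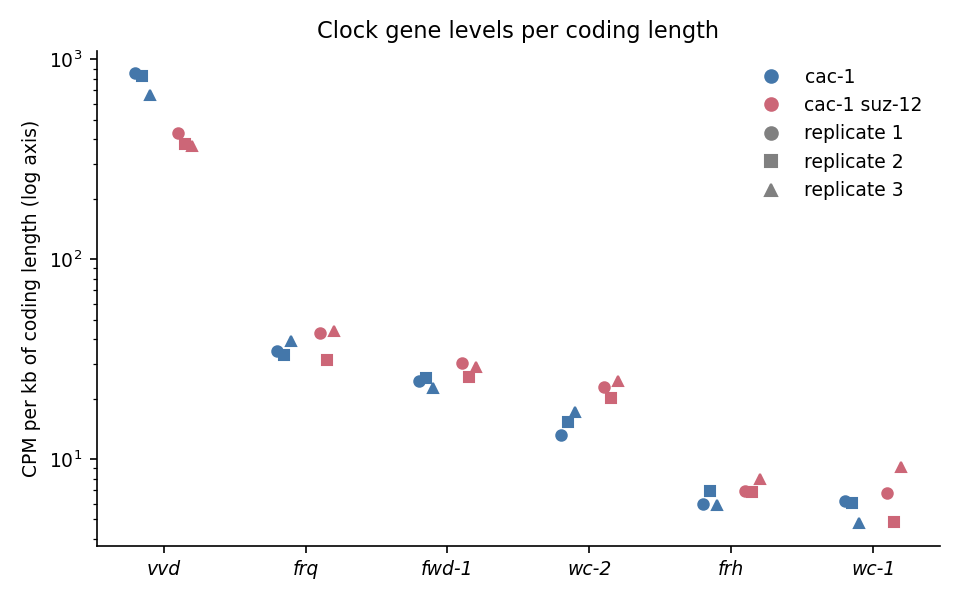
CPM per kb of coding length (logarithmic vertical axis) of each clock gene in each library, ordered by the single-knockout mean, with the single knockout in blue and the double knockout in red. The gene vvd lies above all others in every library, and frh and wc-1 share the lowest range.

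Ratios between clock genes within a library do not depend on how libraries are scaled, and 6 were compared with an exact permutation test (two-sided), adjusted over the 6. With 3 libraries against 3 the smallest p it can give is 0.1. The frq to vvd ratio per length was 0.0410, 0.0404 and 0.0588 in the single knockout and 0.1004, 0.0828 and 0.119 in the double knockout. Every double-knockout library was above every single-knockout library, and the geometric mean of the ratio was 2.17-fold higher (exact p = 0.1, adjusted 0.3). The frq to wc-2 ratio was 2.64, 2.17 and 2.27 in the single and 1.88, 1.55 and 1.78 in the double knockout. It was lower in all 3 double-knockout libraries, with a geometric mean at 0.735 times that of the single knockout (exact p = 0.1, adjusted 0.3).

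The other ratios overlapped between the strains. The frq to frh ratio lay between 4.79 and 6.65 in the single knockout and between 4.56 and 6.19 in the double knockout (exact p = 0.7, adjusted 0.7). The frq to fwd-1 ratio lay between 1.32 and 1.72 and between 1.21 and 1.51 (exact p = 0.6, adjusted 0.7). The frq to wc-1 ratio was highest in single-knockout replicate 3, at 8.20, and lowest in double-knockout replicate 3, at 4.77 (exact p = 0.6, adjusted 0.7). The wc-1 to wc-2 ratio changed by -0.31 on the log2 scale (exact p = 0.4, adjusted 0.7).

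**Figure D4:**
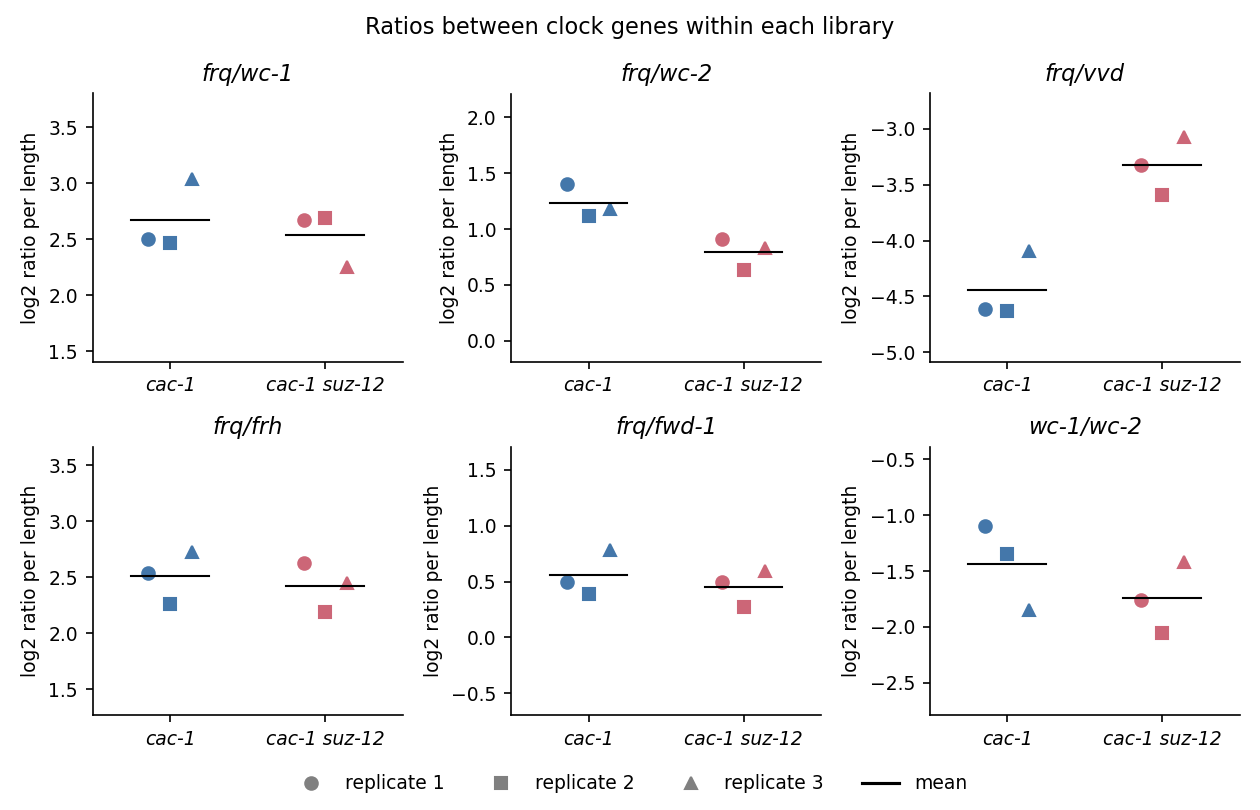
Log2 ratio of per-length levels of 6 pairs of clock genes in each library, where each panel spans the same height on the log2 axis and the line is the mean. The strains separate for frq/vvd, at -4.44 in the single and -3.33 in the double knockout, and for frq/wc-2, at 1.23 and 0.79.

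Within a strain the clock genes differed in how much their libraries varied. The SD of log2 CPM within strains was 0.101 for fwd-1, 0.127 for frh, 0.159 for vvd, 0.171 for wc-2, 0.210 for frq and 0.353 for wc-1, against a median of 0.230 over all genes tested. Of the genes tested, 6.73% varied less than fwd-1 and 77.8% less than wc-1. These shares are over genes of all levels, and the 2 genes differed in level. By mean log2 CPM, 81.8% of the genes tested lay below fwd-1 and 52.4% below wc-1. Whether level plays a part in the spread was not tested. Profiles were compared by the root mean square difference of gene-centred log2 CPM over the 6 libraries. Among the clock genes the most alike were frh and fwd-1, at 0.0968, and the least alike were wc-2 and vvd, at 0.816.

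By the same measure, the 3 genes nearest to frq among genes whose mean log2 CPM reached 2 were NCU02187 (0.0366), rbg-40 (0.0446) and NCU07049 (0.0578). Their log2 fold changes were 0.10, 0.20 and 0.077, and on library totals -0.10, -0.0053 and -0.13. Because these genes were picked for their likeness over the same 6 libraries, their differences between the strains follow from the choice and are given as a description. The gene nearest to vvd was NCU02665 (0.0485), with a log2 difference of -0.94, which likewise follows from the choice. Those nearest to frh, wc-1, wc-2 and fwd-1 were NCU04611 (0.0544), NCU01080 (0.0997), NCU01828 (0.0418) and NCU01928 (0.0385).

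The wider pathway was read from 5 lists of clock and light genes, 68 genes in all. Of the 68, 56 had a named row in the table and all 56 could be tested. The rest were dropped, which left 6 of 13 period and frq expression genes and 4 of 6 photoreceptor genes. Shares of a list given below are shares of its tested genes. Of the 56, 9 were called higher and 8 lower, or 30.4% together, near the 28.1% of all genes, although the share differed from list to list. Their median log2 fold change was -0.064. Both counts moved with single libraries. Higher calls fell to 5 without single-knockout replicate 1 or 2, and lower calls fell to 4 or 5 without replicate 1 or 3 of the single knockout or double-knockout replicate 1 or 3. On library totals 15 were lower.

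The genes that act on the FRQ protein were represented by 20 kinase, phosphatase and turnover genes. Of these, 1 was higher, 1 lower and 18 not called, with a median log2 fold change of 0.013. The 2 called genes were 10% of the list, against 28.1% of all genes tested. The gene that rose was rgb-1, a regulatory subunit of protein phosphatase 2A. It stood at 120, 114 and 130 CPM in the single and 195, 182 and 226 CPM in the double knockout, and the strains did not overlap. It rose by 0.72 on the log2 scale, with an SE of 0.152 (edgeR adjusted p = 0.00190). The casein kinase gene ck-1a, whose product phosphorylates FRQ, changed by 0.26 and was not called (edgeR adjusted p = 0.296). The gene of the list with the highest mean log2 CPM over all 6 libraries was camk-1, a calcium and calmodulin dependent kinase gene, with a log2 fold change of 0.28 (edgeR adjusted p = 0.263). In the single knockout alone pkac-2 stood higher, at 274 against 257 CPM.

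Of the 7 genes for the COP9 signalosome, which keeps the FWD-1 ligase active, csn-4 was called lower and the other 6 were not called. Across all genes tested, 11.9% were called lower and 16.1% higher. The levels of csn-4 were 36.2, 42.6 and 38.9 CPM in the single and 28.8, 32.0 and 26.7 CPM in the double knockout. The strains did not overlap. Its log2 fold change was -0.43 (edgeR adjusted p = 0.0452), close to the threshold. The call was lost without any 1 of 5 libraries, all but double-knockout replicate 2 (edgeR adjusted p from 0.0659 to 0.146). The median of the 7 genes was -0.25.

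Of 13 listed period and frq expression genes, 6 were tested. Among these, set-1, a histone H3 lysine methyltransferase gene, was called higher, with a log2 fold change of 0.54 (edgeR adjusted p = 0.0394). This 1 gene was 16.7% of the list, against 28.1% of all genes tested. Leaving out replicate 1 or 2 of the single knockout or replicate 1 or 3 of the double knockout ended the call (edgeR adjusted p from 0.0659 to 0.188), as did scaling on library totals (edgeR adjusted p = 0.214). The gene of the list with the highest CPM, the corepressor gene rco-1, changed by 0.030 (edgeR adjusted p = 0.907), and by -0.18 on library totals.

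Among 10 transcription factor genes of clock and light output, 1 was higher, 3 were lower and 6 were not called. The 4 called genes were 40% of the list, against 28.1% of all genes tested. The aerial hyphae regulator sah-1 stood at 214, 140 and 210 CPM in the single and 435, 317 and 553 CPM in the double knockout. All double-knockout libraries were higher, by 1.21 on the log2 scale with an SE of 0.213 (edgeR adjusted p = 5.81e-04). The gene vad-3, a transcription factor gene named for vegetative and asexual development, fell from 21.8, 24.7 and 31.8 CPM to 10.2, 15.5 and 14.5 CPM. Its log2 fold change of -0.97 had an SE of 0.197 (edgeR adjusted p = 0.00148). The gene sub-1, needed for fruiting body development, changed by -0.68 (edgeR adjusted p = 0.00727). The nitrogen regulator nit-2 changed by -0.45 (edgeR adjusted p = 0.0352), and that call was lost without any 1 of 5 libraries, all but single-knockout replicate 2 (edgeR adjusted p from 0.0722 to 0.117).

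The light-induced genes were read beside vvd because vvd is itself induced by light through the white collar complex. Whether the complex drives each listed gene in these cultures was not tested. Of 17 measured, 5 were higher, 4 lower and 8 not called, with a median log2 fold change of -0.30. The 9 called genes were 52.9% of the list, against 28.1% of all genes tested. With 1 library left out, 5 to 10 of the 17 were called, the fewest without single-knockout replicate 1, where 21.3% of all genes were called. The 4 lower genes were ccg-9, al-1, cry and bli-4. The carotenoid gene al-1, which encodes phytoene desaturase, was measured at 257, 211 and 307 CPM in the single and 89.8, 156 and 83.7 CPM in the double knockout. Its strains did not overlap, and its log2 fold change of -1.24 had an SE of 0.225 (edgeR adjusted p = 8.42e-04). The cryptochrome gene cry went from 135, 82.6 and 179 CPM to 56.5, 79.6 and 40.2 CPM. Single-knockout replicate 2 and double-knockout replicate 2 nearly met, at 82.6 and 79.6 CPM.

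The log2 fold change of cry was -1.17 (edgeR adjusted p = 0.0205). The call ended without replicate 1 of the single knockout (edgeR adjusted p = 0.0525) or of the double knockout (edgeR adjusted p = 0.0702). The trehalose synthase gene ccg-9 fell by 1.21 on the log2 scale (SE 0.175; edgeR adjusted p = 6.35e-05). The light-induced gene bli-4 changed by -1.04 with overlapping strains (edgeR adjusted p = 0.0452), and its call was lost without any 1 of 5 libraries, all but single-knockout replicate 2 (edgeR adjusted p from 0.0545 to 0.134). The photolyase gene phr, at -0.59, lay at the threshold and was not called (edgeR adjusted p = 0.0510). It was called lower in 10 of 17 alternatives, library totals (-0.76) and upper-quartile factors (-0.66) among them, and its adjusted p ran from 0.00821 to 0.186.

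The 5 higher genes were con-6, ccg-1, ccg-13, ccg-14 and cao-2. Of these, cao-2 lies at 2654 to 4556 of linkage group VII, within 200 kb of an end. The gene con-6 lies at 5205351 to 5205743 of linkage group III. Distances to an end are not given here for con-6, ccg-1, ccg-13 and ccg-14, so these genes are not to be read as lying far from one. Whether position plays a part in these rises was not tested. The conidiation gene con-6 went from 20.9, 17.7 and 18.8 CPM to 82.5, 53.5 and 50.9 CPM. It rose by 1.71 on the log2 scale, with an SE of 0.190 (edgeR adjusted p = 3.72e-06). The clock-controlled gene ccg-1 rose by 1.02 on the log2 scale (edgeR adjusted p = 5.66e-04) and ccg-13 by 1.10 (edgeR adjusted p = 0.00402). The gene of the list with the highest CPM, ccg-14, rose by 0.73 (edgeR adjusted p = 0.0222). Its call was lost without replicate 1 or 2 of the single knockout or double-knockout replicate 3 (edgeR adjusted p from 0.0679 to 0.134). The carotenoid oxygenase gene cao-2 rose by 0.58 (edgeR adjusted p = 0.0298), and its call was lost without replicate 1 or 2 of the single knockout or double-knockout replicate 1 or 2 (edgeR adjusted p from 0.0659 to 0.124) and on library totals (edgeR adjusted p = 0.130). Genes of this list thus moved in opposite directions, and vvd lay among the lower ones.

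**Figure D5:**
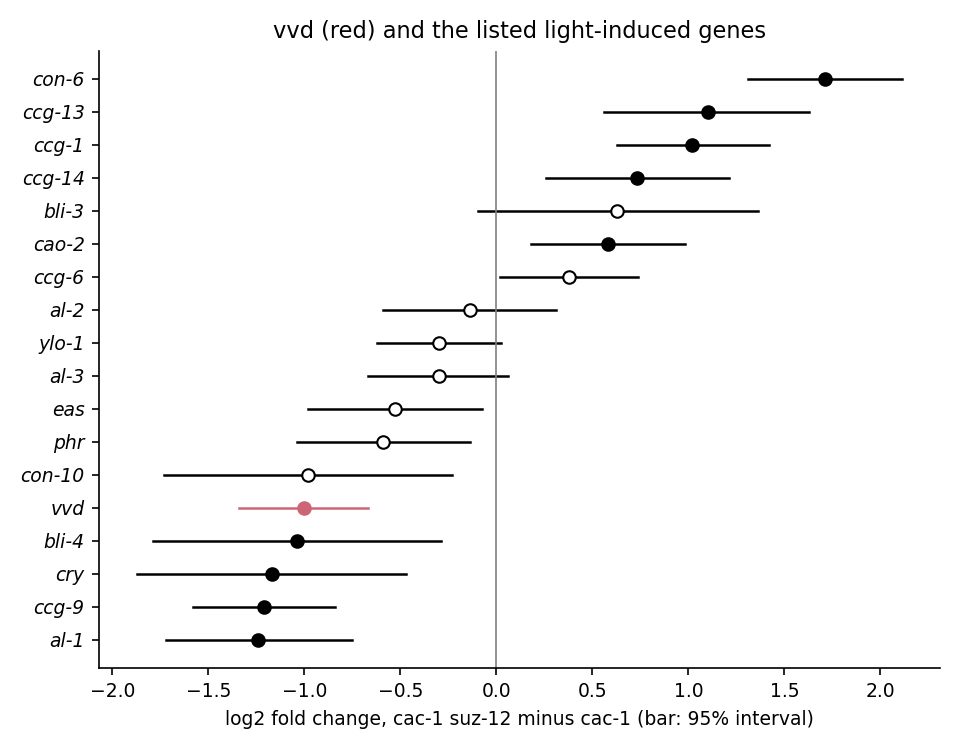
Log2 fold change, double minus single knockout, with 95% interval, of vvd in red and the 17 listed light-induced genes in black, where filled points passed an adjusted p of 0.05. The changes run from -1.24 for al-1 to 1.71 for con-6, and vvd stands at -1.0.

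Of the 4 other photoreceptor genes measured, cry was lower and the phytochrome gene phy-2 higher (log2 fold change 0.69, edgeR adjusted p = 0.0463), while phy-1 and nop-1 were not called. The 2 called genes were 50% of this list, against 28.1% of all genes tested. The call of phy-2 was lost without replicate 1 or 2 of the single knockout or double-knockout replicate 1 or 3 (edgeR adjusted p from 0.0956 to 0.229) and on library totals (edgeR adjusted p = 0.144).

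Markers of other developmental states were present in the mycelium. Of 8 conidiation markers, none was at 0 in all libraries. Levels were low for con-13, at 0.23 to 1.2 CPM over the 6 libraries, and for acon-3, at 0.53 to 2.2 CPM. Among the 8 markers 1 was higher, con-6, and 1 lower, con-8. These 2 were 25% of the markers, against 28.1% of all genes tested. The summed level of the 8 markers ran from 251 to 445 CPM in the single and from 222 to 274 CPM in the double knockout. The mean of con-8 alone fell from 177 to 50.9 CPM, a larger fall than that of the mean sum. The sum therefore does not show a fall of the other markers. The gene con-8 went from 175, 128 and 227 CPM to 53.6, 47.1 and 51.9 CPM. It fell by 1.80 on the log2 scale, with an SE of 0.191 (edgeR adjusted p = 2.33e-06). Of 6 markers of sexual development, poi-2 and sub-1 were lower and the rest were not called. These 2 were 33.3% of the markers, against 28.1% of all genes tested. The summed level of the 6 markers ran from 1588 to 3127 CPM in the single and from 1097 to 1856 CPM in the double knockout. A single gene, asd-1, made up 85.9% to 92.2% of that sum in each library, and it overlapped between the strains and was not called (edgeR adjusted p = 0.108). Part of these markers are also light or clock genes, and 3 of them, con-6, con-10 and eas, stand in the light-induced list. Whether the mix of developmental states plays a part in the vvd level was not tested. In bulk RNA, fewer cells of a type and less RNA per cell cannot be told apart.

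All 6 clock genes lie inside their chromosomes. Their distance to the nearer end ranged from 965 kb for frh to 2954 kb for wc-2, and 0 of 6 lay within 200 kb of an end, where much of the facultative heterochromatin of this fungus is found. Of all genes tested, 7.95% lay that near an end. No clock gene overlapped another gene of the table. The 2 nearest genes on each side of each clock gene were read as well, 24 in all. Of these, 3 were called higher and 5 lower, against 16.1% and 11.9% of all genes. The neighbours of frq were NCU02267 and NCU02264, at 0.019 (edgeR adjusted p = 0.934) and -0.31 (edgeR adjusted p = 0.162) on the log2 scale. The sign of the NCU02267 value turned on library totals, at -0.17. The genes named next were chosen after their values were seen.

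Beside vvd, NCU03966 (linkage group VI, 2264996 to 2267010, plus strand), whose coding region ends 2.47 kb from that of vvd and faces it, was lower too. It went from 34.2, 28.0 and 23.8 CPM to 14.2, 14.2 and 10.9 CPM. The log2 fold change of -1.12 had an SE of 0.184 (edgeR adjusted p = 2.21e-04). On the right, 5.72 kb away, NCU03968 moved the other way, by 0.72 (edgeR adjusted p = 0.00402). One gene further, NCU03969 changed by -0.83 (edgeR adjusted p = 0.0412), a call lost without replicate 1 or 3 of the single knockout or double-knockout replicate 1 or 3 (edgeR adjusted p from 0.0893 to 0.153).

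The largest rise among the neighbours was at NCU04542, 4.73 kb from fwd-1, at 2.08 on the log2 scale (edgeR adjusted p = 4.44e-08). Next to wc-1, NCU02355 rose by 1.74 (edgeR adjusted p = 2.07e-05), while on its other side NCU02358 fell by 0.63 (edgeR adjusted p = 0.00809). The gene between, NCU02357, changed by -0.57 (edgeR adjusted p = 0.0381), a call lost without replicate 2 of the single knockout or replicate 1 or 3 of the double knockout (edgeR adjusted p from 0.0783 to 0.221). Near frq, NCU02263 fell by 0.73 (edgeR adjusted p = 0.00360). The 4 neighbours of wc-2 and the 4 of frh were not called.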

How the data were processed

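The deposited table holds raw counts per gene, 1 column per alignment file per the file headers, with replicates not pooled. The submitters' processing notes name Trim Galore 0.6.10, STAR 2.7.11, SAMtools 1.21, Subread 2.0.6 with featureCounts, and deepTools 3.5.5. The genome build and the strand setting are not given in the sources used here. Coordinates are those of the deposited table, and linkage groups come from matching 9723 genes to RefSeq names (NC12 assembly). Counted lengths were multiples of 3 for 98.8% of genes, so they are called coding lengths. The deposited table had 36 further count columns of other libraries, which were not used. Of counts from 1 to 20, 80.9% were even, so halved counts were tried as an alternative.

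Counts were filtered with filterByExpr, which kept 9148 genes and removed 609, scaled by TMM and fitted with edgeR 4.0.16 (R 4.3.3) in a robust quasi-likelihood model of strain. SEs were derived from each log2 fold change and its F statistic. CPM per kb divides CPM by coding length. Within-library ratios used counts per length. Replicate libraries differed beyond counting noise (chi-square divided by its degrees of freedom between 23.2 and 107). Alternatives were other scalings, filters, DESeq2 1.42.0, limma-voom (limma 3.58.1), a replicate block, a fit that was not robust, halved counts, the 20 most abundant genes left out, each library left out, and a threshold of 0.01. Precision is limited by 3 libraries per strain.

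The genes named were the 6 clock genes, list genes called (12 at most by adjusted p) and the most abundant of each list, the genes flanking frq and those of most similar profile. The other list genes and neighbours named were added after their values were seen, to name every gene counted. Members and lists were chosen with earlier results of these data known. Gene and promoter sequences were not used here.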

Additional observations from a re-analysis of the deposited data

How the results depend on the processing

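The lower call of vvd held in all 17 alternatives, its log2 value lying between -1.20 (library totals) and -0.94. The higher call of wc-2 held in 13 of 17. It was lost on library totals (0.35, edgeR adjusted p = 0.149) and in 3 of the 6 fits that left out 1 library, whose values ran from 0.46 to 0.64, so that 0 of 6 clock genes were then called higher, as also at an adjusted p of 0.01. Scaled to library totals, which put the median gene at -0.20, frq stood at -0.079 and frh at -0.0019, which follows the scaling. At 0.01, 983 genes were higher and 543 lower. On library totals 1861 genes were lower, as were 15 list genes, and 35.8% of calls were higher, against 57.5% with TMM and 48.0% with upper-quartile scaling. With each library left out in turn there were 0 to 1 clock genes higher, 1129 to 1535 genes higher and 650 to 1139 lower, and 5 to 11 list genes higher and 4 to 9 lower. Fewest genes were lower without replicate 1 (650) or replicate 3 (695) of the double knockout. Calls near the threshold were also lost with upper-quartile factors (cao-2, set-1, phy-2), limma-voom (set-1, phy-2, NCU02357, NCU03969), DESeq2 or no filter (bli-4) and the filter of 10 counts (csn-4). Not called with TMM, con-10 was called in 7 of 17 alternatives, eas in 4 and bli-3 in 2. The log2 ratios moved by less than the spread between libraries in every alternative. With 1 library left out, though, the differences of frq/wc-1, frq/frh and frq/fwd-1 changed sign. They reached 0.051 and 0.0092 for frq/wc-1 and frq/fwd-1 without single-knockout replicate 3, and 0.03 for frq/frh without double-knockout replicate 2. Of 746 values for 44 other named genes, 653 gave the same direction and call, 55 lost a call, 24 gained one and 14 changed sign. Those 14 values, all of genes not called, were on library totals -0.18 for rco-1, -0.17 for NCU02267, -0.10 for NCU02187, -0.0053 for rbg-40 and -0.13 for NCU07049, and with upper-quartile factors -0.038 for rco-1 and -0.052 for NCU02267. With 1 library left out, rco-1 ran from -0.074 to 0.12, NCU02267 from -0.013 to 0.078 and NCU07049 from -0.033 to 0.22.

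The replicate block gave 1683 genes higher and 1326 lower, with wc-2 at 0.56 (edgeR adjusted p = 0.00798) and vvd at -1.0. It ended the calls of cry (edgeR adjusted p = 0.245), bli-4 (0.274) and NCU03969 (0.145) and brought con-10, eas and bli-3 past the threshold. Deviations of same-numbered libraries correlated at -0.015, 0.0972 and 0.173 across genes, so the numbers are not taken as pairs. A sign-flip test over pairs cannot go below 0.25.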
